A study of Mus musculus with 17 samples.

Results

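The colony-stimulating factors and stem cell factor are the growth factors of the myeloid and mast cell lineages, and 10 genes of these ligand and receptor pairs were followed here, out of 30406 genes shared by the 2 gene lists the libraries were counted on. The genes were chosen by name: Csf1, Il34 and their receptor gene Csf1r, Csf2 with the receptor chains Csf2ra and Csf2rb, Csf3 with Csf3r, and Kitl with Kit. All 10 had at least 1 unique molecular identifier (UMI) in both tissues. Transcripts of single cells were counted from their 3′ ends (10x Genomics v3 chemistry) in 17 libraries of sorted mouse cells, 8 from skin and 9 from kidney. Each value below is in CPM, the UMIs of a gene per 1000000 UMIs of the shared genes in the cells of 1 type in 1 library. Counts from the 3′ end depend on each transcript's end, so levels were compared for 1 gene between cells and never between genes.

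In the background biology, CSF1 and IL34 both bind CSF1R, a receptor tyrosine kinase on which monocytes and macrophages depend, and IL34 sustains Langerhans cells in the epidermis. GM-CSF, the product of Csf2, signals through a specific alpha chain (Csf2ra) and the common beta chain (Csf2rb) that IL-3 and IL-5 also use, while G-CSF (Csf3) drives neutrophil production through CSF3R. Stem cell factor (Kitl) acts on KIT, which mast cells and melanocytes require and which also marks early progenitors, and FLT3 with its ligand supports dendritic cells. A ligand is often made by stromal, endothelial or epithelial cells and received by leukocytes, so the levels are given by source and receiving cell.

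All mice carried the PDGFRb-Cre transgene and the Z/EG reporter and were used at 8 weeks of age, and the PDGFR-β+GFP+ cells were sorted from them. The SARATg mice also carried a human ZFYVE9 cDNA, which encodes the SMAD anchor SARA, behind a CAG promoter and a lox-stop-lox cassette at the Rosa26 locus, whereas SARAWT mice lacked it. The study describes the PDGFRb promoter as active in inflammatory cells of the embryo as well as in pericytes, and the sorted cells of these libraries carried markers of many lineages, epithelial and muscle cells included. Skin came from SARAWT mice given PBS (3 libraries) or bleomycin (3 libraries) and from SARATg mice given PBS (1 library) or bleomycin (1 library). Bleomycin was injected under the skin at 20 mg/kg, 3 times a week for 2 weeks by the labels, while the study's methods state daily injections. Kidneys came from SARAWT mice given vehicle (3 libraries) or aristolochic acid (3 libraries) and SARATg mice given vehicle (2 libraries) or aristolochic acid (1 library), which was injected into the peritoneum at 5 mg/kg, 3 times a week for 3 weeks. The labels do not name the mice behind a library, so p-values measure the spread between libraries.

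Several libraries stood apart or went against their labels. Human ZFYVE9 was listed in 4 skin libraries, all labelled SARAWT, where it was at 843 CPM in SARAWT PBS 1 and at 87.8 to 188 CPM in the others. SARAWT PBS 3 by its label had 621 CPM of mouse Zfyve9, above the 314 and 224 CPM of the skin SARATg libraries, and 7.75 to 26.0 CPM in the other skin SARAWT libraries. In kidney it had 167 CPM in the library labelled SARAWT aristolochic acid 1 and 20.7 CPM in the one labelled SARATg aristolochic acid 1, against 11.1 to 31.8 CPM in the other SARAWT and 93.4 and 91.7 CPM in the SARATg vehicle libraries. These 4 libraries keep their label as a name only. They were SARAWT libraries over, or SARATg libraries not over, 4 times the median of the SARAWT-labelled libraries of their tissue. That median comes from these same libraries. SARAWT PBS 2, bleomycin 1 and bleomycin 2 were under this cut. Their human ZFYVE9 (188, 87.8 and 113 CPM) was still above their mouse Zfyve9 (11.9, 7.75 and 8.66 CPM). The source of these human counts was not tested, so they do not bear out the SARAWT labels. SARAWT PBS 2 was shallow (3355217 UMIs, a median of 1103 per barcode), and 55.5% of its barcodes occurred in another skin library, against 0.594% to 22.1% elsewhere in skin. The other skin libraries held 22276778 to 69765525 UMIs and the kidney libraries 28660151 to 137093834. Skin libraries 1 and 2 of both SARAWT groups were counted on the longer gene list, and the number 3 and SARATg libraries on the shorter.

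Cells were assigned by marker genes that include none of the 10 members, which gave a type to 25727 of 30075 kept skin cells (85.5%) and 66617 of 71324 kidney cells (93.4%). Each cell type name below means cells with the markers of that type. Of the 10 genes most raised in the Schwann cell gate, 2 were its own markers and 2 (Col1a1 and Col1a2) were stromal gate markers. The part of stromal RNA in the Schwann cell values was not tested. The distal convoluted tubule gate had 2 of its own and 4 of other types, and it was left out of the fits. Stromal cells gated on genes such as Col1a1, Pdgfra and Mfap5 are called noncanonical pericytes after the study's term and may include fibroblasts, and mural cells gated on genes such as Rgs5, Cspg4 and Notch3 are called canonical pericytes. The plot of mean levels by type shows where each member was found. Free RNA reaches every droplet, so levels of a few CPM in an unlikely type were not read as expression.

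**Figure D1:**
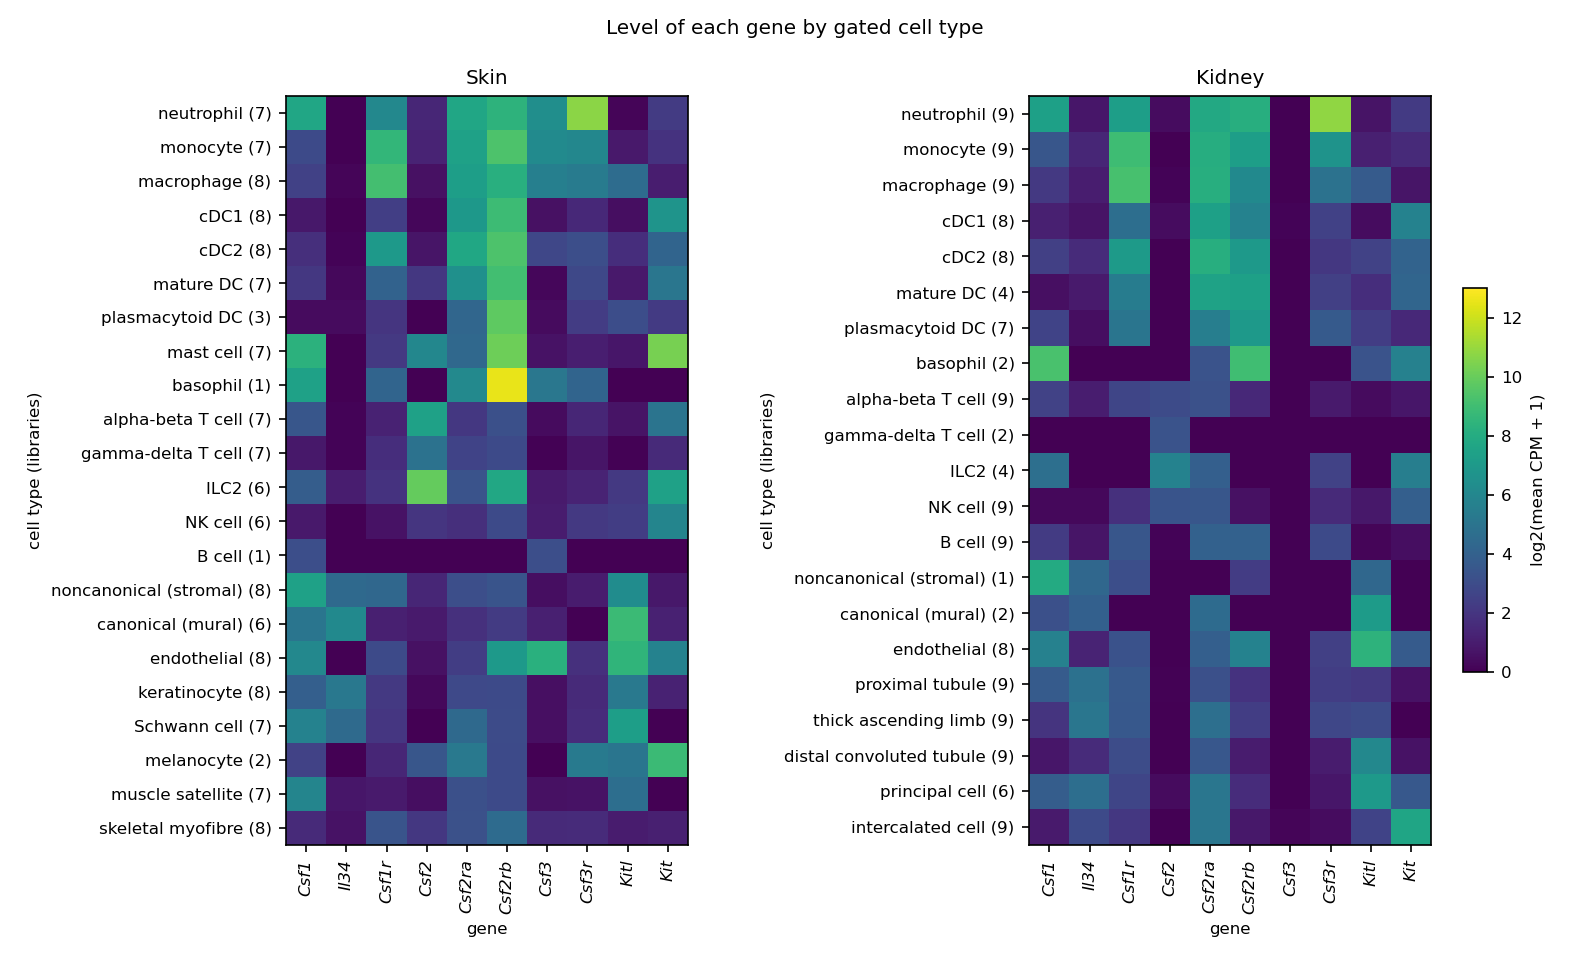
Mean level of the 10 genes, as log2(mean CPM + 1), in each gated cell type of skin (left) and kidney (right), with the number of libraries that had at least 10 cells of the type in brackets. Csf3r was brightest in neutrophils of both tissues, Csf1r in macrophages and monocytes, and Kit in skin mast cells and kidney intercalated cells, while Csf3 was near 0 throughout kidney.

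The CSF1 axis came first. Csf1 (chr3:107741048-107760469, minus strand of GRCm38) had its highest mean in skin in mast cells, at 321 ± 143 CPM (SD, n = 7 libraries), followed by neutrophils at 207 ± 90.8 CPM (n = 7) and noncanonical pericytes at 171 ± 68.6 CPM (n = 8). Mast cells exceeded neutrophils in 5 of 7 libraries, and the order of the first pair was not separated (0.60 on the log2 scale, exact two-sided sign-flip permutation test, adjusted p = 0.274). By number of UMIs the noncanonical pericytes were the main source, since they held 63.7% ± 24.2 (SD, n = 8) of the Csf1 UMIs of a skin library. In kidney, among types with at least 10 cells in at least 5 libraries, neutrophils led with 164 ± 84.9 CPM (n = 9) and exceeded endothelial cells (52.0 ± 32.8 CPM) in all 8 libraries that had both, by 1.52 on the log2 scale (exact sign-flip test, adjusted p = 0.0371). The cell types were ranked on the same libraries as these tests of order, which makes their p-values too small. The adjustment covers 19 leading pairs of such types in both tissues, of which 7 passed. Adjusted over all ranked neighbours instead, none passed, the smallest adjusted p of the exact tests being 0.0618.

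Il34 (chr8:110741829-110805924, minus strand), the other CSF1R ligand, was led by other cell types than Csf1, though noncanonical pericytes had both in skin. In skin it had 70.5 ± 53.1 CPM in canonical pericytes (n = 6), 36.3 ± 26.0 CPM in keratinocytes (n = 8), 21.7 ± 12.8 CPM in Schwann cells (n = 7) and 20.4 ± 9.37 CPM in noncanonical pericytes (n = 8), and the leading pair was not separated (adjusted p = 0.148, exact sign-flip test). Monocytes, neutrophils, mast cells, cDC1 and endothelial cells had no Il34 UMI in any skin library with at least 10 cells of the type. In kidney the thick ascending limb (33.3 ± 19.9 CPM, n = 9), proximal tubule (27.6 ± 19.6 CPM, n = 9) and principal cells (25.3 ± 17.3 CPM, n = 6) led, with no separation of the first pair (exact sign-flip test, adjusted p = 0.475), and proximal tubule cells held 73.5% ± 20.7 of the kidney Il34 UMIs.

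Csf1r (chr18:61100598-61132149, plus strand), the receptor of both, was highest in macrophages in both tissues. Skin macrophages had 549 ± 73.6 CPM (n = 8) and monocytes 390 ± 69.0 CPM (n = 7), a difference of 0.49 on the log2 scale in 7 of 7 libraries (exact sign-flip test, adjusted p = 0.0424). Kidney macrophages had 601 ± 39.8 CPM and monocytes 504 ± 104 CPM (n = 9 each), higher in macrophages in 7 of 9 libraries (adjusted p = 0.0810, exact sign-flip test). cDC2 (the Cd209a+ dendritic cells) had 131 ± 39.9 CPM in skin and 135 ± 50.1 CPM in kidney, and neutrophils 67.1 ± 29.4 and 155 ± 83.8 CPM. Proximal tubule cells had 11.2 ± 5.44 CPM of Csf1r, a level whose share from free RNA was not tested.

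The fits of SARAWT bleomycin over SARAWT PBS asked whether skin injury moved any member within a cell type. Across 17 fits (16 cell types and all cells together) the 10 members gave 72 tests past the filter on low counts, of which 1 was called at an adjusted p of 0.05 (edgeR quasi-likelihood test), against 0.477% of all gene tests. At an unadjusted p under 0.05 there were 16 of 72 (22.2%, against 12.6% of all gene tests), 5 higher and 11 lower with bleomycin, and the median log2 fold change over the 72 was 0.16. DESeq2 called 6 (2.92% of all gene tests), a fit with the replicate number as a block 7 of 68 (3.11%), a fit with the gene list as a covariate 9 (2.37%), and edgeR without the filter on low counts 12 of 156 (1.73%). Leaving out the libraries against their labels left the shallow SARAWT PBS 2 as the only PBS library (0 of 45 edgeR tests in 8 fits called), so the weight of the label doubt could not be tested. The 16 are drawn in the plot of skin fold changes.

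**Figure D2:**
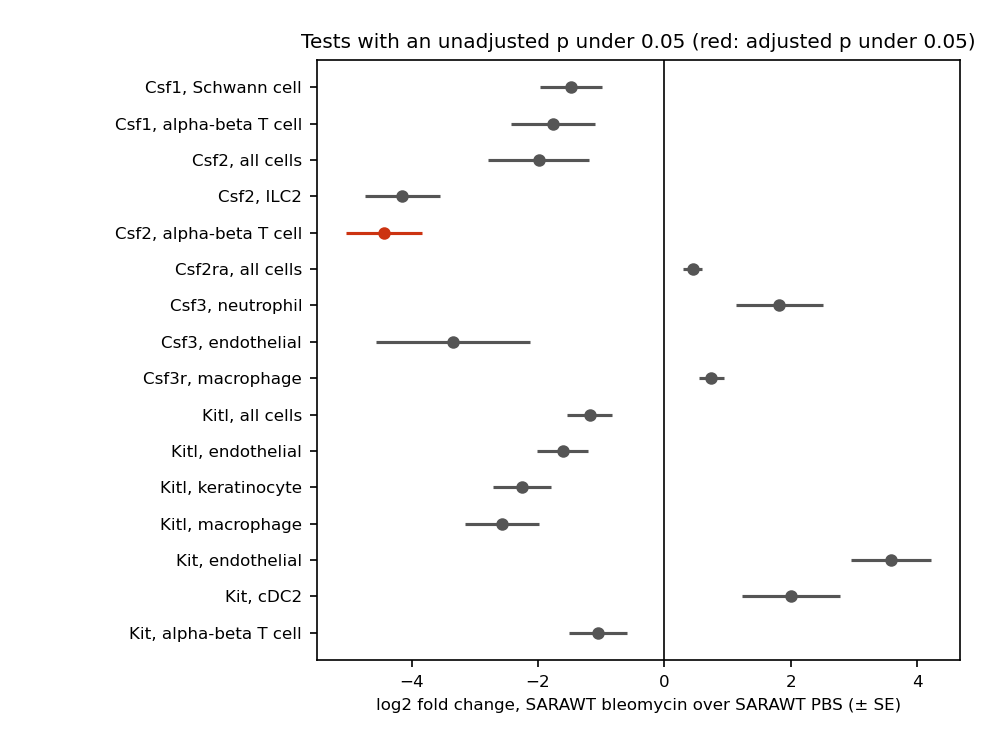
Log2 fold change of SARAWT bleomycin over SARAWT PBS in skin (± SE of the edgeR fit) for each of the 16 member and cell type pairs with an unadjusted p under 0.05. Csf2 in αβ T cells, at -4.44, was the pair past an adjusted p of 0.05, and Csf2 in ILC2 cells and Kit in endothelial cells had changes of -4.15 and 3.59 that were not.

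None of the 20 tests of the CSF1 axis was called with bleomycin. Csf1 in noncanonical pericytes had 111, 193 and 248 CPM in SARAWT PBS 1 to 3 and 288, 113 and 112 CPM in SARAWT bleomycin 1 to 3, with 184 CPM in SARATg PBS and 122 CPM in SARATg bleomycin. The groups overlapped, and 1 noncanonical pericyte held 119 of the 681 Csf1 UMIs of SARAWT bleomycin 1. In Schwann cells Csf1 had 32.7 and 153 CPM in SARAWT PBS 1 and 3 against 34.0, 25.0 and 37.8 CPM with bleomycin (log2 fold change -1.48, SE 0.491, edgeR adjusted p = 0.110). The library labelled SARAWT PBS 3 set this difference, since the log2 fold change was 0.28 without it.

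Csf1r in macrophages stayed within the spread of the libraries, at 686, 577 and 472 CPM with PBS and 452, 539 and 594 CPM with bleomycin in SARAWT, and 547 and 522 CPM in SARATg. In noncanonical pericytes Csf1r was at 3.85 to 19.6 CPM in 7 libraries and at 82.3 CPM in SARATg PBS 1 (1479 UMIs in 955 cells). The summed gate markers of macrophages in the noncanonical pericytes of that library were at 20.9 CPM, against 12.1 to 78.4 CPM in SARAWT PBS, and the monocyte markers at 248 CPM against 499 to 998 CPM, and their part in the result was not tested. The difference of the bleomycin effect between SARATg and SARAWT was -3.96 on the log2 scale (SE 0.704, edgeR adjusted p = 0.1797). Il34 in keratinocytes had 35.6, 15.3 and 9.84 CPM with PBS and 24.0, 75.8 and 21.7 CPM with bleomycin in SARAWT, overlapping groups, and 76.6 and 31.5 CPM in SARATg.

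The largest log2 fold change of the 72 skin tests was that of Csf2, which encodes GM-CSF. The promoter of Csf2 (gene at chr11:54247271-54249667, minus strand) is shown because Csf2 gave the only called test. The RefSeq window of 300 bases on GRCm38.p6, chr11:54249850-54250149, minus strand, covers 250 bases before the RefSeq start and 50 after it, and lies 182 bases before the GENCODE gene. Capitals mark an AGATAA motif of the GATA factors and a TTGCNNAA motif of the C/EBP factors, which 11.2% and 10.8% of 32851 RefSeq promoters of this length held on either strand.
Csf2: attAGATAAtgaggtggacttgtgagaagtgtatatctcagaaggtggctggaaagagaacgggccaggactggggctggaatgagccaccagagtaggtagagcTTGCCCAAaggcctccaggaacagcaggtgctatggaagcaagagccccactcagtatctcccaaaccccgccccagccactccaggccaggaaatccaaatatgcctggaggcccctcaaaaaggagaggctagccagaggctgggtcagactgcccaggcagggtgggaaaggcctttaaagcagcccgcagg
No match to TGANTCA, the letters of AP-1 sites (7.81% of promoters), was found on either strand, which says only that these letters are not in this window.

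Csf2 was led by lymphoid cells in both tissues. In skin, ILC2 cells (type 2 innate lymphoid cells with Gata3 and Il1rl1) had 982 ± 1138 CPM (n = 6), αβ T cells 172 ± 230 CPM (n = 7), mast cells 63.8 ± 31.6 CPM (n = 7) and γδ T cells 28.9 ± 12.7 CPM (n = 7). ILC2 cells exceeded αβ T cells in 6 of 6 libraries by 2.72 on the log2 scale (exact sign-flip test, p = 0.0312, the smallest that 6 libraries allow, adjusted p = 0.0594). In kidney 4 libraries with at least 10 ILC2 cells, all given vehicle, had a mean of 53.3 ± 32.3 CPM. NK cells (9.50 ± 8.91 CPM) and αβ T cells (6.90 ± 5.40 CPM, n = 9 each, with and without aristolochic acid) were lower. The kidney ILC2 values rest on 12 UMIs in 44 SARATg cells and 2 UMIs in 22 SARAWT cells. Because of their number, the αβ T cells held 71.1% ± 15.6 of the kidney Csf2 UMIs.

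In skin αβ T cells Csf2 fell with bleomycin. The 2 PBS libraries in the fit, SARAWT PBS 1 and 3, had 579 and 147 CPM, SARAWT bleomycin 1, 2 and 3 had 26.3, 5.06 and 19.0 CPM. SARAWT PBS 2 had 234 CPM but only 4 of these cells and did not enter the fit. The groups did not overlap, and the log2 fold change was -4.44 (SE 0.602, edgeR adjusted p = 0.0210), where 0.259% of the 7333 genes of this fit were called. In SARATg the single libraries had 407 CPM with PBS and 21.2 CPM with bleomycin, with exact 95% Poisson intervals that cover counting error only and do not overlap (see the plot of Csf2 and Csf3). Few cells carried the counts: 1 cell held 122 of the 235 UMIs in SARAWT PBS 1, and 1 cell held all 7 in SARAWT bleomycin 1. Both PBS libraries of this fit go against their labels, so no fit without them could be made. The call was lost without SARAWT bleomycin 1 (adjusted p = 0.0575) and without SARAWT bleomycin 2 (adjusted p = 0.109), at log2 fold changes between -5.10 and -3.25. The summed ILC2 markers in αβ T cells were at 1964 to 2230 CPM with PBS and 1558 to 2084 CPM with bleomycin in SARAWT, and at 4095 and 2128 CPM in SARATg, and their part in the result was not tested. Csf1 and Kit were also lower with bleomycin in these cells, and neither was called. Their SARAWT means were 3.04 against 16.1 CPM and 17.0 against 44.3 CPM (edgeR adjusted p = 0.533 and 0.652).

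ILC2 cells had the same direction without passing the test. Csf2 was at 2928 and 923 CPM in SARAWT PBS 1 and 3 and at 78.8 and 129.8 CPM in SARAWT bleomycin 2 and 3, with 1670.0 CPM in SARATg PBS and 163 CPM in SARATg bleomycin. Every PBS library was above every bleomycin library with at least 10 ILC2 cells, and SARAWT bleomycin 1, with 3 cells, had 1031 CPM from 1 cell. The log2 fold change was -4.15 (SE 0.592, edgeR adjusted p = 0.267, with 0% of the genes of this fit called), whereas DESeq2 gave an adjusted p of 1.66e-09 (0.116% called). The T cell markers in these ILC2 cells were at 821 to 873 CPM with PBS and 722 to 795 CPM with bleomycin. In γδ T cells Csf2 had 7.19 and 42.4 CPM in SARAWT PBS 1 and 3 and 33.8, 27.7 and 31.7 CPM with bleomycin, so these groups overlapped. Over all cells of a library the level was 40.7, 2.14 and 24.9 CPM with PBS and 4.78, 3.22 and 7.62 CPM with bleomycin (log2 fold change -1.99, SE 0.803, edgeR adjusted p = 0.251). Without the libraries against their labels the PBS group was SARAWT PBS 2 alone, and the log2 fold change of 1.45 was the value of that library's 2.14 CPM against the bleomycin libraries. In SARAWT PBS 1 to 3 and SARAWT bleomycin 1 to 3, αβ T cells made up 1.30%, 0.512%, 5.18%, 1.63%, 4.85% and 7.79% of the kept cells and ILC2 cells 1.10%, 0%, 2.52%, 0.139%, 0.508% and 2.25%, and the part of these shares in the sum was not tested.

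**Figure D3:**
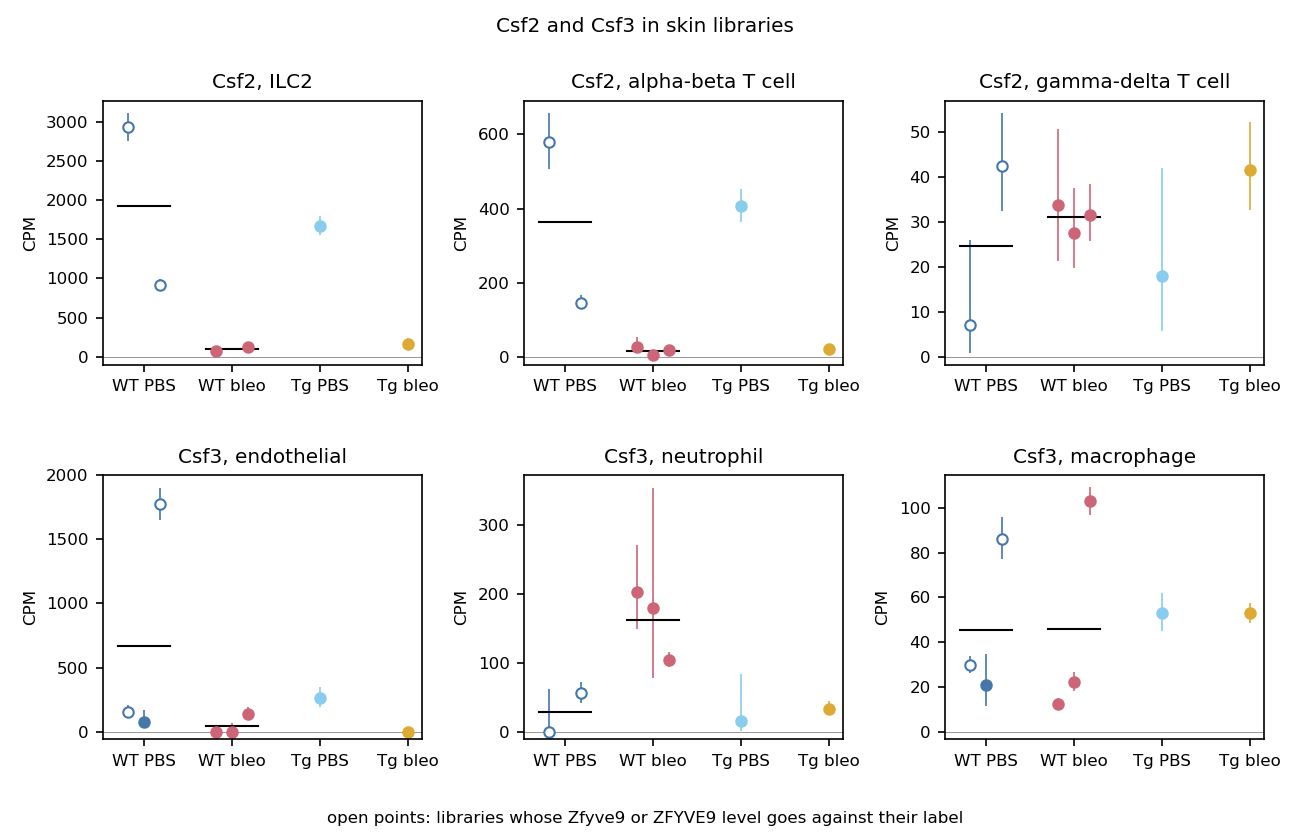
Level (CPM, linear axis from 0) of Csf2 and Csf3 in 6 skin cell type panels, with 1 point per library of at least 10 cells, exact 95% Poisson intervals as bars and the mean of replicated groups as a line. Open points are libraries that go against their labels. Csf2 in ILC2 cells and αβ T cells was lower in every bleomycin library shown than in every PBS library, and Csf3 in endothelial cells ranged from 0 to 1776 CPM.

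The receiving side of GM-CSF was broad. Csf2ra (chr19:61223957-61228429, minus strand), the specific chain, had 213 ± 25.4 CPM in skin cDC2, 204 ± 117 CPM in neutrophils, 170 ± 41.6 CPM in monocytes and 157 ± 24.6 CPM in macrophages, and in kidney 287 ± 42.3 CPM in cDC2, 286 ± 29.1 CPM in macrophages and 269 ± 32.5 CPM in monocytes. The leading pair was separated in neither tissue (exact sign-flip test, adjusted p = 0.575 and 1). None of its 10 skin tests was called. Its level over all cells was 101, 113 and 90.3 CPM with PBS and 121, 139 and 115 CPM with bleomycin, which did not overlap (log2 fold change 0.45, SE 0.15004, edgeR adjusted p = 0.1801).

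Csf2rb (chr15:78325752-78353847, plus strand), the common beta chain, was led in skin by basophils and mast cells. There, 1 library with enough basophils had 6102 CPM, mast cells had 1138 ± 481 CPM (n = 7), plasmacytoid dendritic cells 882 ± 153 CPM (n = 3) and cDC2 667 ± 234 CPM (n = 8). Mast cells exceeded cDC2 in 7 of 7 libraries (0.75 on the log2 scale, exact sign-flip test, adjusted p = 0.0424). In kidney basophils had 524 ± 219.5 CPM (n = 2), and among types with at least 5 libraries neutrophils (287 ± 79.5 CPM) exceeded monocytes (156 ± 44.2 CPM) in 9 of 9 libraries (0.87 on the log2 scale, adjusted p = 0.0371, exact sign-flip test). The gene lies near its paralog Csf2rb2, which encodes an IL-3-specific beta chain. In the last 500 bases of the longest coding transcripts none of 451 stretches of 50 bases was shared by both, and over the whole transcript 18.4% of those of Csf2rb were. Only exact matches were counted, so a split of reads between the 2 genes through near matches was not tested. Csf2rb2 was also highest in basophils (4402 CPM in 1 library) and mast cells (979 ± 539 CPM).

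Levels of Csf2rb moved with the gene list of the libraries. In macrophages it had 90.6 and 84.3 CPM in SARAWT PBS 1 and 2 and 226 and 238 CPM in SARAWT bleomycin 1 and 2, all counted on the longer list, and 383 CPM in SARAWT PBS 3 and 550 CPM in SARAWT bleomycin 3, counted on the shorter. Within each list the bleomycin libraries were higher. The unpaired log2 fold change was 0.91 (SE 0.632, edgeR adjusted p = 0.566, where 0.177% of the genes of the macrophage fit were called), and with the replicate number as a block, which also separates the lists, it was 1.18 (SE 0.229, adjusted p = 0.0256), where 4.67% of the genes of that fit were called. In SARATg, both on the shorter list, macrophages had 228 CPM with PBS and 536 CPM with bleomycin.

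G-CSF had neutrophils as its leading receiving cell. The promoter of its receptor gene Csf3r (gene at chr4:126024550-126044440, plus strand) is shown because its leading type stood furthest above the next among the receptors. The RefSeq window chr4:126024409-126024708 (GRCm38.p6, plus strand) reaches 159 bases into the GENCODE gene, and capitals mark GAGGAA, the core letters of PU.1 and other ETS sites, present in 28.3% of the promoters.
Csf3r: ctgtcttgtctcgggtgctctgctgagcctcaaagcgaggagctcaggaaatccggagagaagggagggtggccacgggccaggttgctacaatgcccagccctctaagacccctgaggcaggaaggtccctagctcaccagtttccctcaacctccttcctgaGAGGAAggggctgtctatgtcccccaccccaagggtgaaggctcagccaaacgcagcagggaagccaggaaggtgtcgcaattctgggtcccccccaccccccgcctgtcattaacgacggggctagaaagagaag
Csf3r had 1712 ± 526 CPM in skin neutrophils (n = 7) against 64.0 ± 26.6 CPM in monocytes and 41.8 ± 11.2 CPM in macrophages, and neutrophils exceeded monocytes by 4.77 on the log2 scale in 7 of 7 libraries (exact sign-flip test, adjusted p = 0.0424). In kidney neutrophils had 1828 ± 533 CPM and monocytes 102 ± 35.7 CPM (n = 9 each), 4.16 apart on the log2 scale in 9 of 9 libraries (adjusted p = 0.0371, exact sign-flip test). Because macrophages were many, they still held 30.5% ± 22.8 of the skin Csf3r UMIs, against 49.0% ± 22.5 in neutrophils.

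The neutrophil level of Csf3r ranged from 1018 CPM (SARAWT bleomycin 1) to 2714 CPM (SARATg PBS) in skin, with overlap between groups. In macrophages it was 35.0, 29.6 and 34.0 CPM in SARAWT PBS 1 to 3 and 45.0, 55.5 and 55.9 CPM in SARAWT bleomycin 1 to 3, without overlap, and 29.1 and 49.99 CPM in the SARATg libraries. The log2 fold change of 0.74 (SE 0.194) had an edgeR adjusted p of 0.151, and of 0.0735 with the block. The cDC2 markers in the SARAWT macrophages were at 885 to 2903 CPM with PBS and 463 to 1029 CPM with bleomycin, and their part in these values and in those of Csf2rb was not tested.

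Csf3 itself (chr11:98701263-98703629, plus strand) was found in skin and hardly in kidney, where 12 UMIs were counted over all 9 libraries and no test was made. In skin its mean was highest in endothelial cells, at 300.1 ± 603 CPM (n = 8), but the values ran from 0 to 1776 CPM, and neutrophils (84.4 ± 80.8 CPM), monocytes (73.2 ± 55.5 CPM) and macrophages (47.4 ± 32.9 CPM) followed with no separation of the leading pair (exact sign-flip test, adjusted p = 0.841). Macrophages held the most UMIs, 49.5% ± 17.9 of those of a library.

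Endothelial Csf3 was at 151, 75.7 and 1776 CPM in SARAWT PBS 1 to 3 and at 0, 0 and 138 CPM in SARAWT bleomycin 1 to 3. The library labelled SARAWT PBS 3 held 776 of the UMIs, with 191 in 1 cell, and all 32 UMIs of SARAWT bleomycin 3 were in 1 cell. The log2 fold change was -3.34 (SE 1.22, edgeR adjusted p = 0.260) and ranged from -9.98 to -0.74 as single libraries were left out. SARATg endothelial cells had 261 CPM with PBS, 45 of 46 UMIs in 1 cell, and 0 with bleomycin, where a count of 0 has an exact Poisson upper bound of 26.7 CPM. Neutrophils had 0 and 55.5 CPM in SARAWT PBS 1 and 3 and 204, 180.1 and 104 CPM with bleomycin (log2 fold change 1.82, SE 0.686, edgeR adjusted p = 0.997). It was between 1.24 and 2.13 without any one library other than SARAWT PBS 3, and without that library the PBS group was at 0 and the fitted 10.16 is no bound. The endothelial markers in these neutrophils were at 0 to 30.9 CPM with PBS and 26.4 to 67.5 CPM with bleomycin, and their part was not tested. In macrophages the values overlapped, at 29.7, 20.7 and 86.2 CPM with PBS and 12.1, 22.1 and 102.9 CPM with bleomycin.

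Transcripts of stem cell factor in skin were highest in cells with markers of the vessel wall, Schwann cells and stroma. The promoter of Kitl (gene at chr10:100015630-100100416, plus strand) is shown because Kitl had the most skin tests at an unadjusted p under 0.05 of all members (4 of 8). The RefSeq window chr10:100015571-100015870 (GRCm38.p6, plus strand) reaches 241 bases into the GENCODE gene. Capitals mark a TATA box (TATAAA), held by 13.6% of the promoters.
Kitl: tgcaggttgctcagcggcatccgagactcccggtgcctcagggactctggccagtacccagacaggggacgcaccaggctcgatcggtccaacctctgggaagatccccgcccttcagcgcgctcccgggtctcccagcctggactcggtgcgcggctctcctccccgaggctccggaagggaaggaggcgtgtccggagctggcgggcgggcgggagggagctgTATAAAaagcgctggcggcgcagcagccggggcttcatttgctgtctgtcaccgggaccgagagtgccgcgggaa
In skin, Kitl had 472 ± 138 CPM in canonical pericytes (n = 6), 367 ± 247 CPM in endothelial cells (n = 8), 157 ± 38.8 CPM in Schwann cells (n = 7) and 77.8 ± 26.2 CPM in noncanonical pericytes (n = 8), and the leading pair was not separated (exact sign-flip test, adjusted p = 0.475). Noncanonical pericytes held 38.1% ± 18.1 of the UMIs. Kidney endothelial cells had 341 ± 112 CPM (n = 8), above principal cells at 126 ± 64.3 CPM in 6 of 6 libraries (1.38 on the log2 scale, exact sign-flip test, adjusted p = 0.0594).

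The 4 skin tests were all lower with bleomycin, and none was called. Endothelial Kitl had 424, 895 and 517 CPM with PBS and 146, 175 and 242 CPM with bleomycin in SARAWT (log2 fold change -1.61, SE 0.404, edgeR adjusted p = 0.1202), while SARATg had 238 and 296 CPM. In the SARAWT endothelial cells the stromal markers were at 25.2 to 155 CPM with PBS and 0 to 17.5 CPM with bleomycin and the mural markers at 101 to 139 and 281 to 481 CPM, and their part was not tested. Keratinocyte Kitl had 43.3, 76.4 and 88.4 CPM with PBS and 19.2, 17.3 and 8.68 CPM with bleomycin (log2 fold change -2.25, SE 0.457, edgeR adjusted p = 0.163), and 21.6 and 20.7 CPM in SARATg. Neither pair of groups overlapped in SARAWT, and in both cell types the SARATg PBS library lay below every SARAWT PBS library. The stromal markers moved the same way in keratinocytes, from 84.1 to 257 CPM with PBS to 17.3 to 67.1 CPM with bleomycin, and their part in the result was not tested. In the SARATg keratinocytes they were at 251 and 307 CPM.

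In macrophages Kitl had 67.2, 65.1 and 11.3 CPM in SARAWT PBS 1 to 3 and 9.11, 5.10 and 7.35 CPM with bleomycin, with 16.8 and 3.07 CPM in SARATg. The groups did not overlap. The log2 fold change was -2.57 (SE 0.591, edgeR adjusted p = 0.114), and with the block -2.27 (adjusted p = 0.0331). The stromal markers in the SARAWT macrophages were at 59.3 to 143 CPM with PBS and 45.5 to 65.2 CPM with bleomycin, and at 405 and 116 CPM in SARATg. In the SARAWT macrophages the endothelial markers were at 16.8 to 35.5 CPM with PBS and 15.1 to 34.7 CPM with bleomycin. The mural markers there were at 2.52 to 8.87 CPM and 2.64 to 7.66 CPM. The part of these markers' cells in the Kitl values was not tested. Over all cells Kitl was at 40.6, 75.8 and 33.5 CPM with PBS and 25.3, 13.2 and 20.6 CPM with bleomycin (log2 fold change -1.18, SE 0.357, edgeR adjusted p = 0.149). Noncanonical pericytes made up 14.9%, 16.9% and 7.48% of the kept cells in SARAWT PBS 1 to 3 and 6.08%, 7.76% and 1.74% in SARAWT bleomycin 1 to 3, and the part of these shares in the sum was not tested. Noncanonical pericytes had 47.3, 87.7 and 76.9 CPM against 89.6, 97.7 and 95.8 CPM, and canonical pericytes had 402, 559 and 696 CPM in SARAWT PBS 1 to 3 and 386 CPM in the 1 SARAWT bleomycin library with at least 10 of them.

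**Figure D4:**
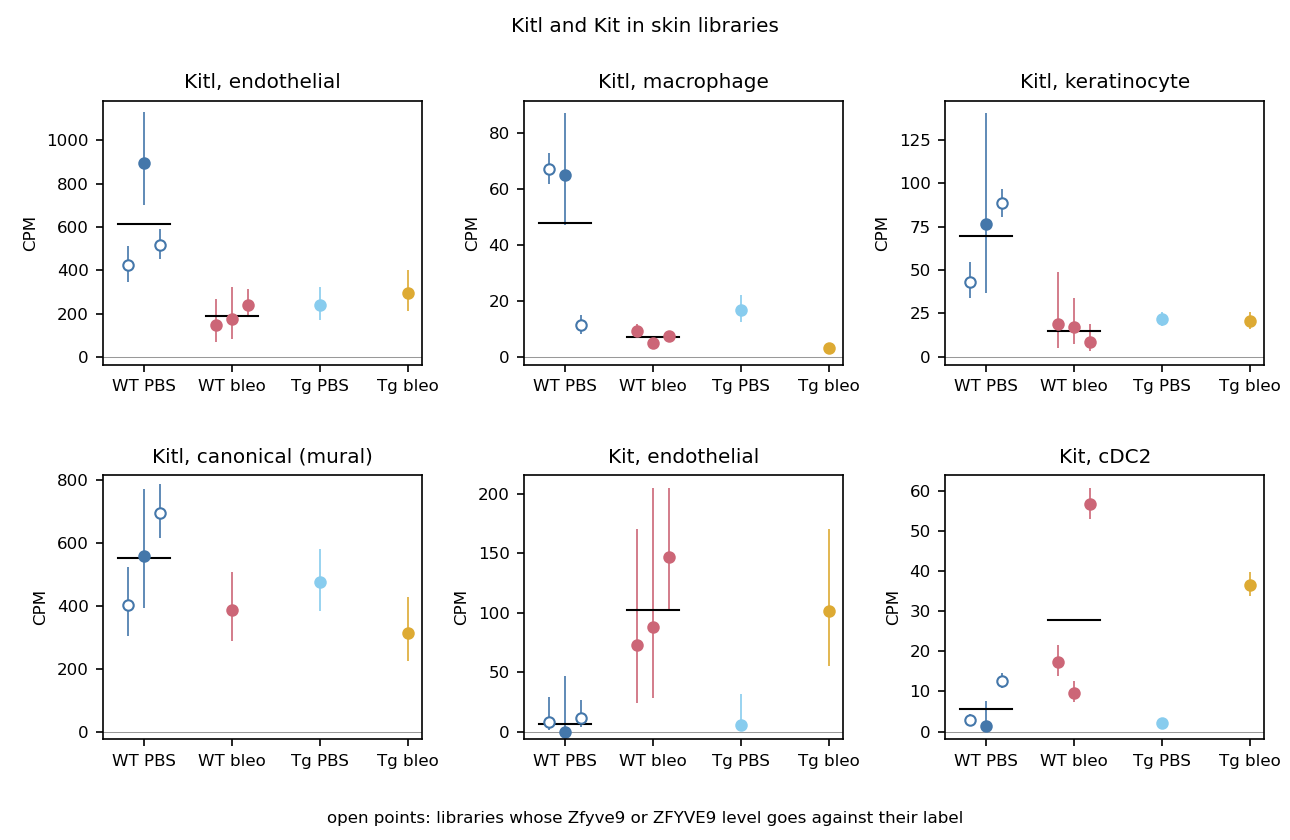
Level (CPM, linear axis from 0) of Kitl in 4 and of Kit in 2 skin cell types, drawn as 1 point per library of at least 10 cells with exact 95% Poisson intervals and group means. Kitl in endothelial cells, macrophages and keratinocytes lay lower in each SARAWT bleomycin library than in each SARAWT PBS library, and Kit in endothelial cells lay between 0 and 11.4 CPM with PBS and between 72.9 and 147 CPM with bleomycin.

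Kit (chr5:75574916-75656722, plus strand) was led by mast cells in skin, at 1290.2 ± 242 CPM (n = 7), with melanocytes at 459 ± 10.1 CPM (n = 2), ILC2 cells at 170 ± 88.7 CPM (n = 6) and cDC1 (the Xcr1+ dendritic cells) at 107 ± 22.9 CPM (n = 8). Mast cells exceeded ILC2 cells in 6 of 6 libraries (3.11 on the log2 scale, exact sign-flip test, adjusted p = 0.0594). By UMIs the cDC1 held 31.0% ± 18.1 and mast cells 25.0% ± 21.4. In kidney, where the mast cell gate held too few cells, the intercalated cells of the collecting duct led with 198 ± 76.4 CPM (n = 9), above cDC1 at 53.8 ± 10.99 CPM in 8 of 8 libraries (1.85 on the log2 scale, exact sign-flip test, adjusted p = 0.0371), and held 49.9% ± 21.03 of the UMIs.

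The largest positive log2 fold change of the 72 skin tests was that of Kit in endothelial cells. Kit had 7.93, 0 and 11.4 CPM in SARAWT PBS 1 to 3 and 72.9, 87.7 and 147 CPM in SARAWT bleomycin 1 to 3, without overlap, and 5.67 CPM in SARATg PBS against 101 CPM in SARATg bleomycin. The log2 fold change was 3.59 (SE 0.633, edgeR adjusted p = 0.0513), just short of a call, in a fit where 0.0725% of genes were called. The values rest on 10 to 35 cells and 5 to 34 UMIs in each SARAWT bleomycin library. All 8 mast cell markers were at 0 in the endothelial cells of the 3 SARAWT bleomycin libraries, and 2 of 8 were detected in SARATg bleomycin (28.9 CPM). The mural markers were at 101 to 139 CPM with PBS and 281 to 481 CPM with bleomycin in SARAWT. In SARATg they were at 312 CPM with PBS and 759 CPM with bleomycin, and their part was not tested.

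In cDC2, Kit had 2.88, 1.38 and 12.7 CPM in SARAWT PBS 1 to 3 and 17.4, 9.65 and 56.7 CPM in SARAWT bleomycin 1 to 3, higher in each pair of equal number, and 2.14 and 36.6 CPM in SARATg. The unpaired log2 fold change was 2.00 (SE 0.772, edgeR adjusted p = 0.303, where 0.00953% of genes were called), and with the block 2.37 (SE 0.247, adjusted p = 0.00181, where 3.08% were). The unpaired value was 0.94 without SARAWT bleomycin 3 and 3.48 without SARAWT PBS 3. The cDC1 gate markers in the SARAWT cDC2 were at 496 to 597 CPM with PBS and 470 to 493 CPM with bleomycin. Irf8, a cDC1 marker kept out of the gate, had SARAWT means of 19.2 CPM with PBS and 52.5 CPM with bleomycin. Its log2 fold change with the block was 1.58, and the other cDC1 markers kept out of the gate are not given here. The part of cDC1 RNA in the Kit values was not tested. The mast cell level itself ranged from 954 to 1704 CPM over 7 libraries, with overlapping groups.

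**Figure D5:**
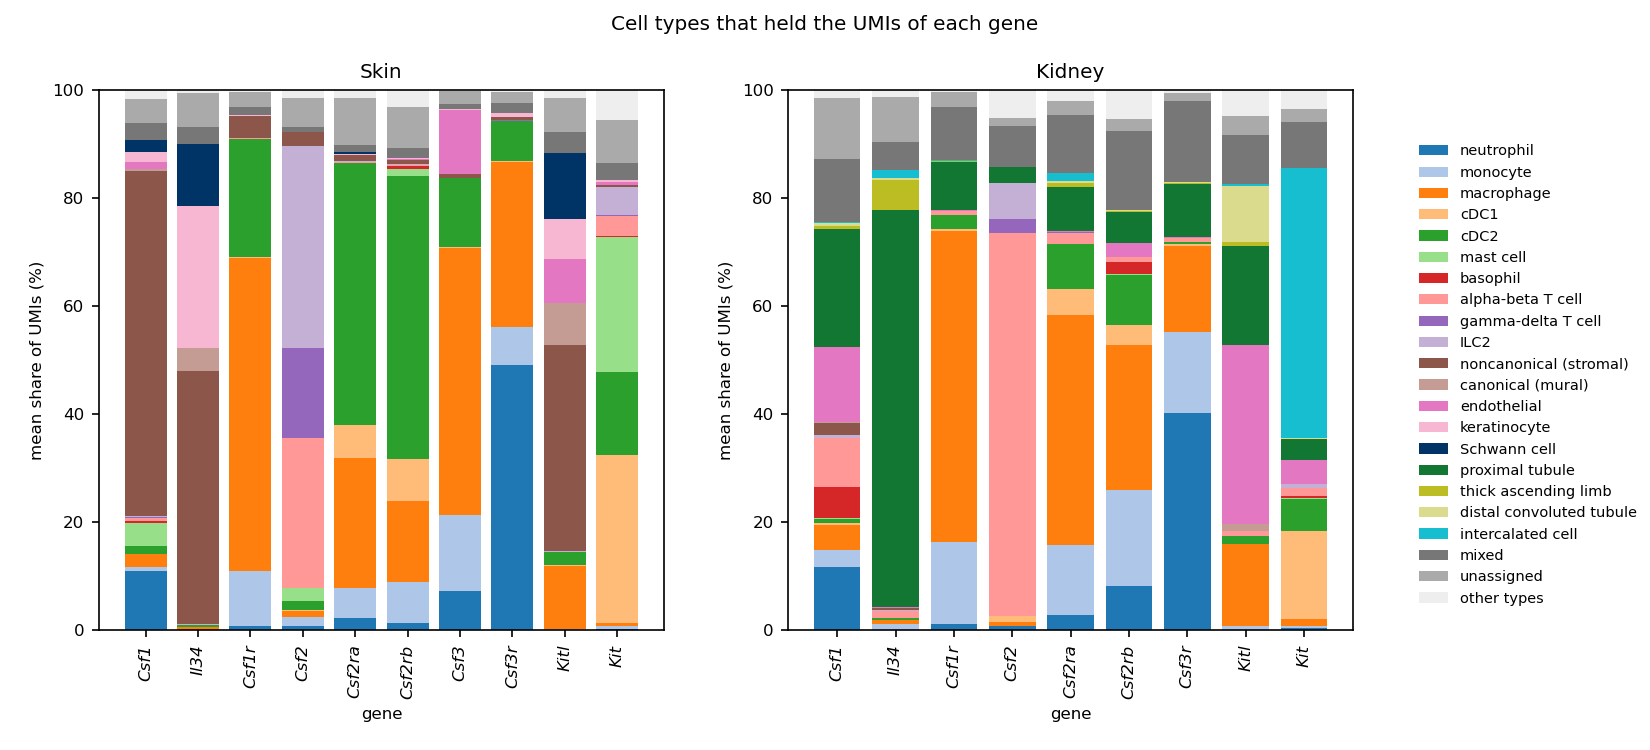
Mean share (%) of the UMIs of each gene held by each cell type, averaged over the libraries of skin (left) and kidney (right), including cells that were mixed or unassigned. Noncanonical pericytes held most of Csf1 in skin (63.7%), macrophages most of Csf1r in both tissues (57.9% and 57.6%), and proximal tubule cells most of Il34 in kidney (73.5%).

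In kidney, aristolochic acid gave no called test among 79 of the members in 14 fits (edgeR), where 0.00298% of all gene tests were called, with 5 at an unadjusted p under 0.05 (6.33%, against 7.87% of all genes). DESeq2 called 1 (0.288% of all gene tests), Csf2 over all cells, and edgeR without the filter on low counts 1 of 125 (0.616%), Il34 in intercalated cells. Without SARAWT vehicle 3 edgeR called 7 of 77 (5.75% of all gene tests), all higher with aristolochic acid: Csf1, Csf1r, Csf2, Csf2ra and Csf2rb over all cells (log2 fold changes 2.18, 2.69, 3.16, 2.61 and 3.14), Csf2rb in macrophages (1.51) and Csf2ra in proximal tubule cells (1.79). Over all cells Csf2 was at 0.0448, 0.317 and 0.394 CPM in SARAWT vehicle 1 to 3 and at 1.67, 1.36 and 1.94 CPM in SARAWT aristolochic acid 1 to 3, without overlap, with 0.496 and 0.650 CPM in SARATg vehicle and 2.68 CPM in SARATg aristolochic acid (log2 fold change 2.66, SE 0.707, edgeR adjusted p = 0.372, DESeq2 adjusted p = 0.0123). Within αβ T cells the values overlapped, at 4.80, 17.5 and 1.71 CPM against 5.35, 3.20 and 4.20 CPM. The αβ T cells made up 2.75%, 3.41% and 41.9% of kept cells in SARAWT vehicle 1 to 3 and 48.9%, 41.3% and 57.3% in SARAWT aristolochic acid 1 to 3. The part of the cell shares in the levels of Csf1, Csf1r, Csf2, Csf2ra and Csf2rb over all cells was not tested. Proximal tubule cells made up 84.5%, 75.8% and 17.7% with vehicle and 8.74%, 36.8% and 14.5% with aristolochic acid. In the macrophage fit of all libraries, the SARAWT mean of Csf1r was 629 CPM with aristolochic acid against 598 CPM with vehicle. That of Csf2ra was 291 against 296 CPM and that of Csf2rb 105 against 55.9 CPM, and none was called.

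Csf1 in proximal tubule cells was at 0.129, 0.801 and 8.63 CPM in SARAWT vehicle, 7.82, 2.14 and 18.7 CPM in SARAWT aristolochic acid, 0.789 and 1.67 CPM in SARATg vehicle and 69.5 CPM in the library labelled SARATg aristolochic acid 1 (869 UMIs, at most 39 in 1 cell). Monocytes of that library had 53.5 CPM, against 0 to 13.5 CPM in the other 8. The smallest adjusted p of Csf1 with aristolochic acid was 0.543 (edgeR). Il34 in intercalated cells had 0, 2.93 and 4.26 CPM with vehicle and 30.4, 1.80 and 7.69 CPM with aristolochic acid in SARAWT, where 1 cell held 12 of 34 UMIs of the highest (log2 fold change 2.61, SE 0.947, edgeR adjusted p = 0.288). The neutrophil level of Csf3r, 1315 to 2015 CPM with vehicle and 1631 to 2059 CPM with aristolochic acid in SARAWT, overlapped.

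In skin, the bleomycin effect was compared between SARATg (1 library a group, assumed to vary like the SARAWT libraries) and SARAWT. Of 93 member tests in 17 fits 1 was called, Csf2rb in ILC2 cells, where 0.453% of the genes of that fit and 0.159% over all fits were called. It had 0 and 75.3 CPM in SARAWT PBS 1 and 3, 243 and 72.8 CPM in SARAWT bleomycin 2 and 3, 6.39 CPM in SARATg PBS and 917 CPM in SARATg bleomycin, where 78 of 135 UMIs were in 1 cell. Both SARAWT PBS libraries with ILC2 cells go against their labels. The ILC2 fit had 2 libraries in each SARAWT group and 1 in each SARATg group, with the gene list as a covariate. Hardly any libraries were left beyond the fitted terms to estimate the spread, so its small adjusted p is no measure of strength. The difference of the effects was 5.44 on the log2 scale (SE 0.865, edgeR adjusted p = 1.66e-07), and DESeq2 gave 3.09 (adjusted p = 0.99996). In kidney none of 79 such tests was called by edgeR, where 0.00298% of all gene tests were.

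SARATg was compared with SARAWT in the 2 against 3 kidney vehicle libraries, and none of 84 member tests in 16 fits was called by edgeR or by DESeq2, where edgeR called 0.00706% of all gene tests. Without the filter on low counts edgeR called 4 of 139 (0.461%), all lower in SARATg: Csf1r in cDC1, Kit in cDC2 and principal cells and Csf3r in B cells. At an unadjusted p under 0.05 there were 8 (9.52%, against 5.52% of all genes), 1 higher and 7 lower in SARATg. The higher one was Kitl over all cells, at 22.1 and 24.9 CPM against 4.58, 15.1 and 9.09 CPM (log2 fold change 1.28). Endothelial cells, its highest kidney type, made up 9.97% and 5.97% of the kept cells in SARATg vehicle and 1.34%, 0.973% and 2.20% in SARAWT vehicle, and the part of these shares was not tested. Within endothelial cells Kitl was at 389 and 465 CPM against 457, 333 and 214 CPM, which overlapped (log2 fold change 0.42, SE 0.364, edgeR adjusted p = 0.9998). Among the lower ones was Kit in cDC2, at 4.47 and 2.21 CPM against 26.4, 8.29 and 19.5 CPM (log2 fold change -2.29), and Csf2rb in cDC2, at 68.2 and 50.8 CPM against 110.3, 99.4 and 163 CPM (log2 fold change -1.05). These groups did not overlap, and the other 5 were Csf1r in cDC1 and plasmacytoid dendritic cells, Csf3r in monocytes and B cells and Kit in principal cells. The cDC1 markers in the cDC2 were at 221 to 481 CPM in SARATg vehicle and 286 to 566 CPM in SARAWT vehicle. Their part in the Kit values was not tested.

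The pathway around the members was followed in 4 further lists. Of 11 partners in the receptor families (FLT3 and its ligand, IL-3, IL-5 and their receptors, PDGF receptors and the alternative IL34 receptors Ptprz1 and Sdc1), 10 could be tested in skin, and none of their 55 tests was called, with 16 at an unadjusted p under 0.05 (29.1%, against 12.6% of all gene tests). With the block, 2 of 10 partner tests over all cells were called lower (3.81% of the genes of that fit were called), Pdgfra (log2 fold change -2.11, edgeR adjusted p = 0.0183) and Pdgfrb (-1.99, adjusted p = 0.0208), and in noncanonical pericytes Sdc1 was called higher (1.09, adjusted p = 0.0386) and Pdgfrb lower (-1.09, adjusted p = 0.0467), where 6.29% of genes were called. Pdgfra is a gate marker of the noncanonical pericytes, whose shares of the kept cells are given with Kitl. The part of these shares in the values over all cells was not tested. Flt3 was at 149 ± 25.4 CPM in skin cDC1 and 105 ± 74.6 CPM in cDC2 (n = 8 each), and at 126 ± 41.2 CPM in kidney cDC1. It had a mean of 163 CPM with PBS and 61.6 CPM with bleomycin in SARAWT cDC2 (log2 fold change -1.37, edgeR adjusted p = 0.216). Among types with over 4 libraries, Flt3l was highest in mast cells in skin (27.9 ± 19.0 CPM) and in αβ T cells in kidney (41.1 ± 4.54 CPM). Il5, whose product signals through the same beta chain, had 567 CPM with PBS and 1086 CPM with bleomycin in ILC2 cells, opposite in sign to Csf2 there (log2 fold change 0.95, edgeR adjusted p = 0.9999).

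The unblocked calls of the other lists stand against 0.477% of all gene tests. Of the kinases, adaptors and STATs (16 genes, 194 tests) 1 test was called, Stat3 in Schwann cells (log2 fold change -1.29, edgeR adjusted p = 0.0175). Of the feedback inhibitors (12 genes, 142 tests) it was Spry2, an inhibitor of RAS signalling downstream of receptor kinases, in αβ T cells (log2 fold change -2.51, edgeR adjusted p = 0.0210). Of the target transcription factors (12 genes, 114 tests) 4 were called and all were lower: Klf4 and Cebpd in Schwann cells (-1.32 and -1.40) and Cebpb and Cebpd in muscle satellite cells (-2.24 and -2.35). In these 2 cell types 4.87% and 2.67% of all genes were called. The Schwann cell and αβ T cell fits had SARAWT PBS 1 and 3 as their only PBS libraries, and both go against their labels. The muscle satellite cell fit also had only 2 PBS libraries. With the block, 5 of 43 macrophage tests of the 4 lists were called higher and 3 lower, where 4.67% of all genes were called. They included Lyn (0.91), Tyrobp (0.78), Cebpa (0.88) and Csf2rb2 (0.98), which were higher, with Dok2 (-1.04), Spred1 (-0.77) and Cebpd (-0.99), which were lower on the log2 scale. In cDC2 3 of 43 were called, all higher (3.08% of all genes), among them Irf8 (1.58), which is also a cDC1 marker, and Ptpn6 (0.76). In noncanonical pericytes 2 of 36 were called higher and 4 lower (6.29% of all genes), which beside the partners were Dok1 (2.303), higher, and Fyn (-0.89), Pik3r1 (-0.92) and Klf4 (-1.02), lower. Over all cells 2 of 50 were called higher and 2 lower (3.81% of all genes), and Ptpn6 (0.91) was among the higher. LYN is a Src family kinase of blood cells, and DOK2 and SPRED1 restrain RAS signalling. In kidney none of these lists had a called test.

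The genes most like some of the members across 43 mean profiles (cell types of both tissues, from the same libraries) were taken among 13018 genes as a description. Csf1r was closest to Clec4a1 (Pearson r = 0.902), Csf3r to Gm5150 (r = 0.9204) and Csf2rb to Csf2rb2 (r = 0.940). Csf2 was closest to Icos, Il5 and Tnfsf11 (r = 0.862, 0.837 and 0.818), and Csf3 to Sele (r = 0.702), the endothelial adhesion gene for E-selectin.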

How the data were processed

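The authors deposited 17 single-cell matrices of UMI counts per gene and barcode, 1 per library, made with Cell Ranger (4.0.0, 3.1.0 or 3.0.2 per the file headers, with 3.0.2, Seurat 2.3.4 and mm10 in the submitters' processing notes). The barcode and gene name columns hold no measurement. Deposited counts were used as they are, on the 30406 Ensembl genes common to both gene lists. A barcode was kept with 200 or more genes and a mitochondrial share of up to 20% of UMIs in skin or 50% in kidney. Cells were gated into 28 types on a score of 0.2 and 3 or more detected markers. No doublet caller was run, but cells whose next lineage scored at least 0.6 of the best were set apart as mixed.

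Counts were summed per library and type with at least 10 cells and fitted over all genes with edgeR 4.0.16 (TMM, filterByExpr, quasi-likelihood, Benjamini-Hochberg, threshold 0.05) in R 4.3.3. The skin fits used the 6 SARAWT libraries, and the kidney fits all 9 in 4 groups. The difference of drug effects in skin had the gene list as a covariate. Order of types was tested by exact two-sided sign flips of log2(CPM + 1). Exact Poisson intervals cover counting error only. DESeq2 1.42.0, no filter, stricter gates, a replicate block and leaving out libraries were alternatives. The scripts were tested on simulated data. All 10 members, the called genes of the lists and the 3 genes most like a member could be named by rule (some are not reported here), whereas Il5 and Flt3 were named after their values were seen. The members and lists were chosen with earlier results of these data known.

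Same-numbered skin libraries deviated together in all cells, macrophages, cDC2 and noncanonical pericytes (correlations of 0.127 to 0.526, 0.221 to 0.493, 0.159 to 0.490 and 0.191 to 0.360). Unlike-numbered libraries had correlations of -0.403 to 0.212, -0.453 to 0.304, -0.334 to 0.142 and -0.253 to 0.0218 in the same order. In all cells and macrophages the highest of these lay above the lowest same-numbered value, so pairing by number was not clear there. Blocked values are given for these fits where they change a call. The pairing comes from the replicate numbers of the labels, which coincide with the gene list.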

Additional observations from a re-analysis of the deposited data

Results flagged for a closer look

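The bleomycin effect on Csf2rb in ILC2 cells differed between SARATg and SARAWT by 5.44 on the log2 scale (SE 0.865, edgeR adjusted p = 1.66e-07), tested as an interaction. With 2 libraries in each SARAWT group, 1 in each SARATg group and a covariate, hardly any libraries were left to estimate the spread. The small adjusted p is therefore no measure of strength. Both SARAWT PBS libraries of this fit, 1 and 3, go against their genotype labels, so the SARAWT side has no PBS library with a Zfyve9 or ZFYVE9 level that matches its label. In SARATg bleomycin 3 of 27 ILC2 cells held the 135 UMIs, and in SARAWT bleomycin 2 1 cell held 33 of 37. The summed basophil markers in these ILC2 cells were at 17.0 CPM in SARATg PBS and 81.5 CPM in SARATg bleomycin (3 of 6 markers detected), against 2.80 to 19.7 CPM in the SARAWT libraries, and the mast cell markers were at 6.39 and 40.8 CPM against 0 to 22.2 CPM. Their part in the result was not tested. The value was 5.35 without the gene list as a covariate, with an edgeR adjusted p of 0.99998, and 3.09 with DESeq2 (adjusted p = 0.99996). The cause of the difference between settings was not tested.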

How the results depend on the processing

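The count of member calls in skin with bleomycin, 1 of 72 tests by edgeR, was 6 with DESeq2, 12 without the filter on low counts, 9 with the gene list as a covariate, 7 with the replicate block, 2 without the top 5% of cells by UMIs, 2 without shared barcodes, 2 with a stricter gate and 0 without the libraries against their labels, an alternative chosen after seeing the data that left 45 tests in 8 fits and the shallow SARAWT PBS 2 as the only PBS library, assumed to vary like the others, so that this 0 says nothing about the labels. Leaving out 1 library gave 0 to 3 calls: 0 without SARAWT bleomycin 1, 2 without SARAWT bleomycin 2, 3 without SARAWT bleomycin 3 and 3 without SARAWT PBS 3. Without SARAWT bleomycin 2 the Csf2 call in αβ T cells was lost, so the 2 calls there were of other tests. No share of all gene tests is given for these counts, nor for those of the top 5%, shared barcode and stricter gate settings. They are therefore not read as results about the members. With aristolochic acid, 0 calls became 1 with DESeq2, 1 without the filter and 0 to 7 when 1 library was left out (7 without SARAWT vehicle 3), and the block left 0, although those numbers did not pair the kidney libraries. For SARATg in kidney, 0 calls became 4 without the filter and stayed at 0 without any 1 library. The 7 separated orders of types became 0 with at least 30 cells and 4 to 8 when 1 library was left out, 4 for each skin library but SARAWT PBS 2 and 8 for SARATg aristolochic acid 1. Leaving out a skin library other than SARAWT PBS 2 left 6 libraries for the skin orders that had passed. The smallest p that 6 libraries allow in the exact sign-flip test, 0.0312, had an adjusted p of 0.0594 in the main setting. The fall to 4 therefore says nothing about those orders. Reversed log2 fold changes were Csf2 in all skin cells without the libraries against their labels (1.45, from SARAWT PBS 2 alone), Csf1 in Schwann cells without SARAWT PBS 3 (-2.12 to 0.28 over single libraries) and, without SARAWT vehicle 1, Csf1r in plasmacytoid dendritic cells with aristolochic acid (4.18, range -3.59 to 4.18) and in SARATg (4.69, range -7.02 to 4.69). The block changed no other member call in the paired skin types than those given with their results. The causes were not tested. Of the other values for single genes, 193 of those with 1 library left out and 217 of the rest kept direction and side of the threshold, 37 passed it only under the alternative and 4 lost it. Depth limits the endothelial and ILC2 values in skin, which rest on few cells in most libraries.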
